A study of Sorghum bicolor with 24 samples.

Results

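Phloem and xylem sclerenchyma, which lie close together in the vascular bundles of the sorghum stem, were compared gene by gene. The comparison used 8 of the 24 libraries in the series, 4 from phloem and 4 from xylem sclerenchyma. They were taken by their labels, with earlier results of these data known. The plants were Sorghum bicolor of the cultivar Wray, a sweet sorghum with no transgene or treatment stated. They were grown in a greenhouse under days of 14 h, and the newest fully elongated internode (phytomer 8) was taken at 74 days, still in the vegetative phase, from 4 plants. Both cell types were cut from cryosections of 20 µm by laser capture microdissection, in which a laser excises chosen cells under a microscope. The labels describe xylem sclerenchyma also as xylary fiber cells. The table held 34117 genes, of which 19502 passed the filter on low counts over the 20 laser capture libraries and were tested.

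Phloem carries sucrose and other solutes along the stem through sieve elements, which lack a nucleus and depend on neighbouring companion cells. Xylem sclerenchyma consists of fibers that surround the water-conducting tissue, lay down thick secondary walls of cellulose, xylan and lignin, and give the stem its stiffness. The identity of the 2 cell types could not be checked against their known marker genes, because the table gives gene identifiers only and 0 of them matched the gene names supplied for sorghum. Genes are therefore given by identifier with no product or position, and gene lists by pathway were not analysed here.

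Total counts were 2769555, 3658511, 27471101 and 30294266 in phloem replicates 1 to 4. They were 5483186, 7508563, 28158378 and 27506995 in xylem sclerenchyma replicates 1 to 4, so replicates 1 and 2 were the shallower libraries in both types. A phloem library had 15027 ± 2782 genes above 1 CPM (counts scaled to a common library total) and a xylem sclerenchyma library 15247 ± 985 (SD, n = 4 each). The difference was smaller than the spread between libraries (exact two-sided permutation test, p = 0.971, where the smallest p this design allows is 0.0286). Phloem replicate 3 stood apart with 11021 such genes, although it was among the deeper libraries, against 15291 to 17125 in the other phloem replicates. Without it the difference in detected genes changed direction, from -220 to 1115 for phloem minus xylem sclerenchyma (exact permutation p = 0.171). Xylem sclerenchyma replicate 2 stood apart in another way. It had raised levels of genes that were higher in phloem than in the other xylem sclerenchyma libraries. Its values are given with the results they touch.

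Between the 2 cell types, 95 of 19502 genes (0.487%) passed both thresholds of a call, which were 2-fold or more and p under 0.05 after Benjamini-Hochberg adjustment of edgeR's quasi-likelihood p-values. Of these, 17 (0.0872% of genes tested) were higher in phloem and 78 (0.4%) were higher in xylem sclerenchyma. This fit did not pair libraries by replicate number. With the replicate number as a block, 62 genes were called, 10 higher in phloem and 52 in xylem sclerenchyma. With the block on the 8 libraries alone, 0 were called. In bulk tissue, fewer cells that express a gene and less RNA per cell cannot be told apart. At an unadjusted p under 0.05 there were 1988 genes (10.2%), of which 789 had their higher level in phloem and 1199 had it in xylem sclerenchyma. The imbalance was not seen in a count that ignores the size of the spread. The libraries of the 2 types did not overlap in 2014 genes (10.3%). In 1009 genes (5.17%) all 4 phloem libraries lay above all 4 xylem sclerenchyma libraries, and in 1005 (5.15%) all lay below. Over all genes tested the median log2 fold change, phloem minus xylem sclerenchyma, was -0.08.

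**Figure D1:**
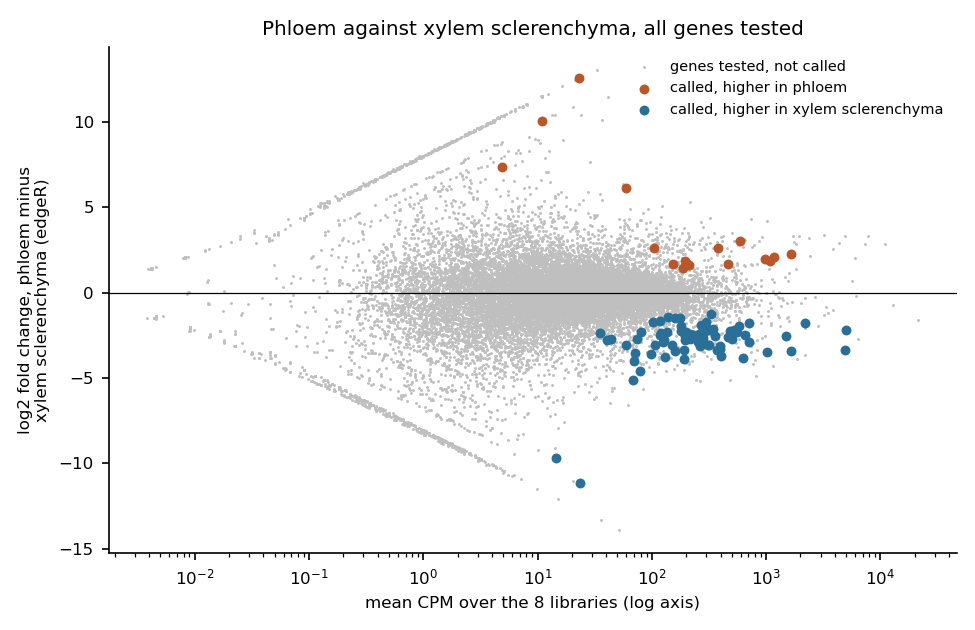
Fold change against abundance for the 19502 genes tested. The x axis is the mean CPM over the 8 libraries on a log scale, the y axis the log2 fold change from edgeR (positive is higher in phloem), and each point is a gene. The 17 called genes higher in phloem are orange and the 78 higher in xylem sclerenchyma are blue, most of the latter lying to the right of 100 CPM.

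Calls came mostly from abundant genes. Among 1819 genes with a mean of 100 to 1000 CPM over the 8 libraries, 69 (3.79%) were called, 59 of them higher in xylem sclerenchyma. Among 9941 genes at 10 to 100 CPM, 16 (0.161%) were called, and among 7669 genes below 10 CPM there was 1. The median standard error of a log2 fold change fell from 2.21 below 10 CPM to 0.454 at 100 to 1000 CPM, so low genes needed far larger changes to be called. Of the 73 genes above 1000 CPM, 9 (12.3%) were called, 3 higher in phloem and 6 in xylem sclerenchyma.

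The 78 genes higher in xylem sclerenchyma formed a moderate shift of abundant genes. Their log2 fold changes had a median size of 2.63 with quartiles of 2.23 and 3.12, and 73 of the 78 had a mean of at least 100 CPM in xylem sclerenchyma. Their median level was 354, 381, 576 and 300 CPM in xylem sclerenchyma replicates 1 to 4. In phloem replicates 1 to 4 it was 64.3, 43.5, 86.8 and 87.3 CPM. Together these genes took 4.1% to 8.39% of all counts in a xylem sclerenchyma library and 0.742% to 1.32% in a phloem library. Sobic.002G207900 and Sobic.003G075400, both of the 78, had 1 count each over the 4 phloem libraries. The libraries did not overlap in 75 of the 78, a feature that the calls themselves favour.

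Xylem sclerenchyma showed its largest fold at Sobic.002G207900. Its level was 29.7, 39.4, 79.4 and 38 CPM in xylem sclerenchyma replicates 1 to 4. In phloem it was at 0 in replicates 1, 2 and 3 and had 1 count in replicate 4 (0.033 CPM). The ratio of CPM pooled over libraries was 3496, with a 95% exact binomial counting interval of 627 to 138118, and the log2 fold change in edgeR's quasi-likelihood test was -11.17 (SE 1.27, Benjamini-Hochberg adjusted p = 0.00116). Outside the vascular bundle it was higher still in epidermis, at 189 ± 138 CPM (SD, n = 4), and it had 0 counts in all 4 pith parenchyma libraries. Vascular parenchyma held 2.67 ± 1.78 CPM and whole stem 8.46 ± 2.44 CPM (SD, n = 4 each). The 3 genes most like it over the 20 laser capture libraries had Pearson correlations of 0.91, 0.88 and 0.88.

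Sobic.001G054600 came next among genes whose libraries did not overlap. It stood at 129, 163, 170 and 73.6 CPM in xylem sclerenchyma replicates 1 to 4. In phloem it had 6.86, 3.01, 0 and 7.1 CPM, so every phloem library was below every xylem sclerenchyma library. The ratio of the group means was 31.6, and the log2 fold change was -5.13 (SE 1.07, Benjamini-Hochberg adjusted p = 0.0357 in edgeR's test). Fitted on the 8 libraries alone it was not called (adjusted p = 0.108 in edgeR's test). It kept its call in 3 of the 8 omissions of a library, whereas Sobic.002G207900 kept it in all 8. Pith parenchyma, at 104 ± 72.2 CPM, and whole stem, at 145 ± 30.9 CPM, were near its xylem sclerenchyma level of 134 ± 44.1 CPM (SD, n = 4 each).

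Of all 95 called genes, 4 were called in every one of the 8 omissions, and all 4 were higher in xylem sclerenchyma. Besides Sobic.002G207900 these were Sobic.001G143200, Sobic.002G380700 and Sobic.008G132700, which are named for that reason, after their values were seen. Sobic.008G132700 was the most abundant of them, at 6918, 7908, 10988 and 6485 CPM in xylem sclerenchyma replicates 1 to 4. Phloem replicates 1 to 4 had 1553, 1776, 2404 and 2022 CPM of it. The gene was thus strongly present in both types and 4.16 times higher in xylem sclerenchyma by the ratio of means (log2 fold change -2.18, SE 0.298, Benjamini-Hochberg adjusted p = 0.0023 in edgeR's test). Its other levels were 3537 CPM in vascular parenchyma, 2186 in pith parenchyma, 5225 in epidermis and 4074 in whole stem, as means of 4 libraries.

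Sobic.001G143200 was at 274, 280, 583 and 241 CPM in xylem sclerenchyma and at 23.8, 24.3, 35.7 and 65.8 CPM in phloem, in the order of the replicates. Its log2 fold change was -3.34 (SE 0.451, Benjamini-Hochberg adjusted p = 0.0023 in edgeR's test), and over the omissions the adjusted p reached 0.0229 at most. Sobic.002G380700 was at 256, 297, 494 and 298 CPM in xylem sclerenchyma and at 55.6, 44.3, 24.9 and 96.1 CPM in phloem (log2 fold change -2.75, SE 0.391, Benjamini-Hochberg adjusted p = 0.00301 in edgeR's test). In neither gene did the libraries of the 2 cell types overlap. Sobic.001G143200 had means of 344 CPM in xylem sclerenchyma, 272 in epidermis, 160 in pith parenchyma, 58.3 in vascular parenchyma and 178 in whole stem. Sobic.002G380700 had 336, 244, 184, 142 and 178 CPM in the same order. Among the 8 libraries, xylem sclerenchyma replicate 3 was the highest for all 4 genes called in every omission.

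The 17 genes higher in phloem were fewer, and their levels were in the same range. Their log2 fold changes had a median of 2.09, with quartiles of 1.75 and 3.03, and 14 of the 17 had a mean of at least 100 CPM in phloem. Their median level was 274, 324, 416 and 302 CPM in phloem replicates 1 to 4, against 71.1, 114 and 56.5 CPM in xylem sclerenchyma replicates 1 to 3. Replicate 4 lay between replicates 1 and 2, and replicate 2 was the highest of its type. No gene of the 17 was called in all 8 omissions, and 3 were called in at least 4 of them.

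The rule for naming genes, by size of the fitted fold, picked 2 phloem genes whose mean level in phloem came mostly from replicate 3. Sobic.008G137000 had 170 CPM in that library and 1.44, 7.93 and 3.47 CPM in phloem replicates 1, 2 and 4. It had 0 counts in all 4 xylem sclerenchyma libraries, so its phloem mean of 45.7 ± 82.9 CPM (SD, n = 4) was at least 157-fold higher than a floor of 3 counts per library, averaged as 0.291 CPM. Sobic.010G202100 had 71.3 CPM in phloem replicate 3, 0.722, 12.8 and 3.37 CPM in replicates 1, 2 and 4, and 1 count over the xylem sclerenchyma libraries. Its pooled ratio was 2258 (95% exact binomial counting interval 405 to 89220). Their Benjamini-Hochberg adjusted p in edgeR's test was 0.0407 and 0.0409, and both lost the call in each of the 8 omissions. In edgeR's fit of the 8 libraries alone the adjusted p was 0.132 and 0.0774, also short of a call. Both were also present in epidermis, at 47.4 ± 38.2 and 27.8 ± 4.21 CPM (SD, n = 4 each). Over the 20 laser capture libraries the 3 genes most like Sobic.008G137000 had Pearson correlations of 0.84, 0.83 and 0.82 on log2(CPM + 1), the second being Sobic.010G202100; these libraries share depth and the high value in phloem replicate 3.

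**Figure D2:**
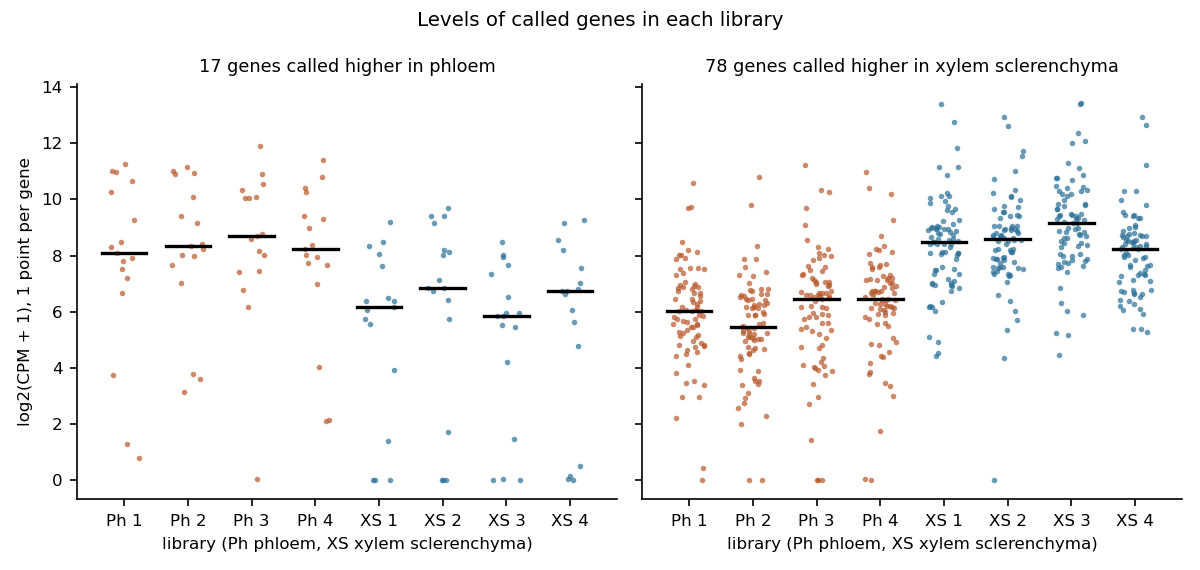
Levels of the called genes in each library. Each point is a gene, the y axis is log2(CPM + 1), black bars are medians over genes, phloem libraries are orange and xylem sclerenchyma libraries blue. The left panel holds the 17 genes higher in phloem, whose medians were 274 to 416 CPM in phloem, and the right panel the 78 higher in xylem sclerenchyma, whose medians there were 300 to 576 CPM; these genes were chosen on the same 8 libraries.

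The number of calls depended strongly on which libraries were present. Leaving out phloem replicate 1 left 2 genes on the phloem side (0.0099% of those tested) and 8 on the xylem sclerenchyma side (0.0396%). Without phloem replicate 2 there were 1 (0.00494%) and 5 (0.0247%), without replicate 3 there were 5 (0.0246%) and 21 (0.103%), and without replicate 4 there were 3 (0.0149%) and 23 (0.114%). Every phloem library was thus needed for most of the calls. Leaving out xylem sclerenchyma replicate 1 left 6 (0.0297%) and 45 (0.222%), leaving out replicate 3 left 0 and 6 (0.0297%), and leaving out replicate 4 left 6 (0.0296%) and 61 (0.301%). In each of these 7 omissions more genes were called higher in xylem sclerenchyma than in phloem. Leaving out xylem sclerenchyma replicate 2 had the opposite effect and raised the count to 140. The rise was almost entirely on the phloem side, which went from 17 to 60 genes (0.296% of 20278 tested), while the xylem sclerenchyma side went from 78 to 80 (0.395%). Of the 78, 70 were called again, and of the 17, 12. With phloem replicate 3 also left out, 28 phloem genes and 29 xylem sclerenchyma genes passed (0.139% and 0.143% of 20213 tested), and 26 of those 28 were among the 60.

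**Figure D3:**
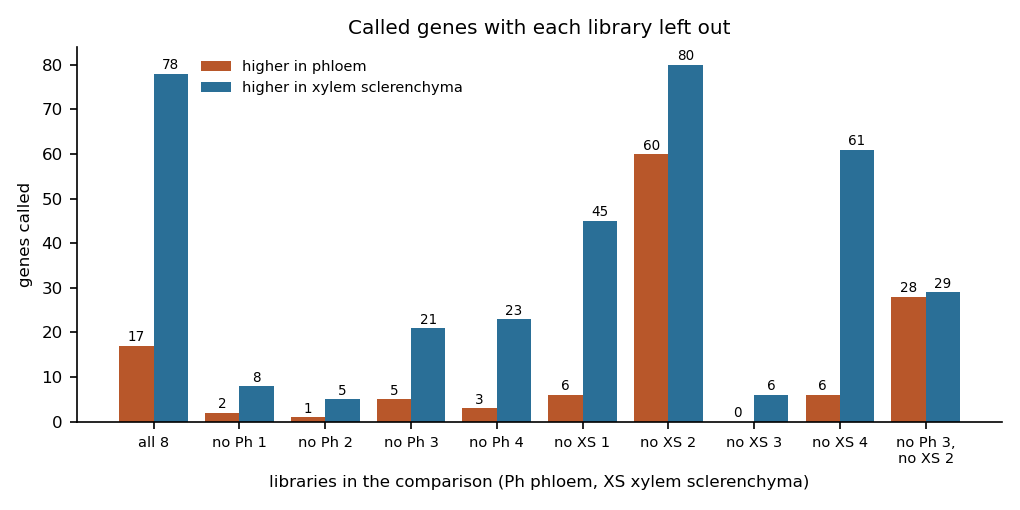
Genes called by edgeR with all 8 libraries, with each library left out in turn, and with phloem replicate 3 and xylem sclerenchyma replicate 2 left out together. Bars are counts of genes higher in phloem (orange) and in xylem sclerenchyma (blue). Leaving out xylem sclerenchyma replicate 2 gave 60 and 80 genes, and every other omission of 1 library lowered both counts from 17 and 78.

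The 60 genes called higher in phloem without xylem sclerenchyma replicate 2 had larger fitted folds than the 17. Their median log2 fold change was 5.29, also when the 11 genes at 0 in all of xylem sclerenchyma replicates 1, 3 and 4 were set to their lower bound. Of the 60, 58 had a mean of at least 100 CPM in phloem and 18 a mean of at least 1000 CPM. Together they took 8.84%, 9.44%, 7.18% and 6.21% of all counts in phloem replicates 1 to 4. Their share was 0.612%, 0.501% and 0.774% in xylem sclerenchyma replicates 1, 3 and 4. These shares describe the genes, which were chosen on those 7 libraries.

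Xylem sclerenchyma replicate 2 took no part in choosing the 60 genes, and its values lay between the cell types. The 60 genes took 3.26% of its counts. Their median level in it was 139 CPM, compared with 298 to 407 CPM in the phloem libraries and 6.66 to 21.2 CPM in the other xylem sclerenchyma libraries. It held counts of all 60, whereas 14, 15 and 16 of them had 0 counts in replicates 1, 3 and 4. In 58 of the 60 it exceeded all 3 other xylem sclerenchyma libraries, which the choice of genes low in those 3 favours. When replicate 1 or 4 of xylem sclerenchyma was left out instead, only 6 phloem genes were called each time. Replicate 1 exceeded the rest of its type in 3 of its 6 and replicate 4 in 4 of its 6. Their median levels were 20.6% and 28.1% of the phloem mean. On the scale of log2(CPM + 1) replicate 2 was nearer the phloem mean for 49 of the 60 genes and nearer the xylem sclerenchyma mean for 11. Relative to the phloem mean of each gene its level had a median of 40.6%, with quartiles of 33.3% and 51.8%.

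The same library carried xylem sclerenchyma genes at nearly the level of the rest of its group. For the 80 genes called higher in xylem sclerenchyma without it, its median was 320 CPM, within the 285 to 498 CPM of the other 3. It lay nearer the xylem sclerenchyma mean in 71 of 80 genes, and its level was 85.3% of that mean at the median. Replicate 2 was thus high in both sets of genes. What part cells other than the labelled type had in this library was not tested.

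When phloem replicate 3 was left out in the same way, its values stayed mostly on the phloem side. Without both libraries, phloem replicate 3 was nearer the phloem mean in 24 of the 28 phloem genes and 23 of the 29 xylem sclerenchyma genes. In the same fit, xylem sclerenchyma replicate 2 was nearer the phloem mean in 23 of the 28 and nearer the xylem sclerenchyma mean in 26 of the 29. The division seen in xylem sclerenchyma replicate 2 did not need phloem replicate 3.

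**Figure D4:**
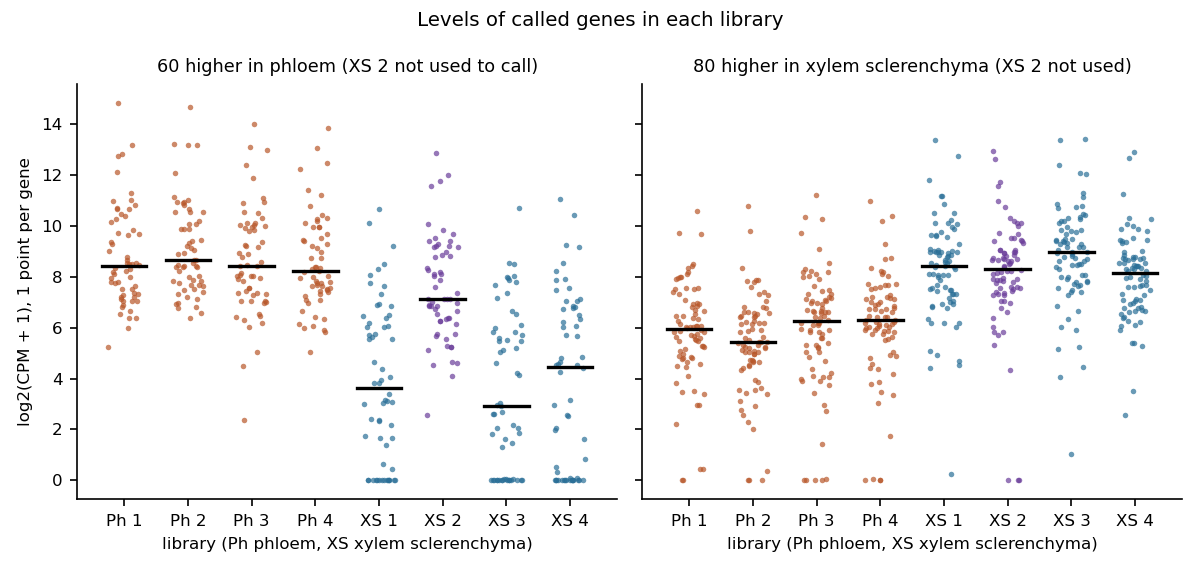
Levels of the genes called without xylem sclerenchyma replicate 2, in each library. Each point is a gene, the y axis is log2(CPM + 1), black bars are medians over genes, and replicate 2 of xylem sclerenchyma is purple because it was not used to call them. In the left panel (60 genes higher in phloem) its median of 139 CPM lies between those of the phloem libraries and the 6.66 to 21.2 CPM of the other xylem sclerenchyma libraries, and in the right panel (80 genes higher in xylem sclerenchyma) its median of 320 CPM lies among theirs.

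The genes with the largest folds in that comparison show the pattern directly. Sobic.001G446800 had 656, 704, 71.2 and 557 CPM in phloem replicates 1 to 4. It had 0 counts in xylem sclerenchyma replicates 1, 3 and 4 and 325 CPM, from 2439 counts, in replicate 2. Against a floor of 3 counts per library (0.254 CPM on average) its phloem mean was at least 1956-fold higher than in xylem sclerenchyma replicates 1, 3 and 4. With all 8 libraries the same gene had a log2 fold change of 2.53 (SE 2.12) and was not called (Benjamini-Hochberg adjusted p = 0.853 in edgeR's test), compared with 0.0295 without replicate 2. Sobic.010G197700 had 299, 649, 353 and 167 CPM in phloem, 0 counts in xylem sclerenchyma replicates 1, 3 and 4, and 233 CPM in replicate 2. Its phloem mean was at least 1444-fold higher than in those 3 libraries, and its adjusted p in edgeR's test moved from 0.0378 without replicate 2 to 0.848 with it.

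Outside the comparison these phloem genes had low levels in the ground tissue. Sobic.001G446800 was at 18.7 ± 21 CPM in vascular parenchyma, 31.7 ± 3.69 in whole stem, 2.09 ± 1.06 in pith parenchyma and 0.0898 ± 0.18 in epidermis (SD, n = 4 each). Sobic.010G197700 was at 66.8 ± 49.6, 61 ± 31.8, 5.2 ± 4.03 and 0.0524 ± 0.105 CPM in the same order. Whole stem libraries all held both genes, and 3 of the 4 epidermis libraries had 0 counts of each.

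On the xylem sclerenchyma side the comparison without replicate 2 again led with Sobic.002G207900, followed by Sobic.003G075400. The latter had 20.4, 35 and 59.6 CPM in xylem sclerenchyma replicates 1, 3 and 4 and 0 counts in replicate 2. In phloem it had 1 count in replicate 1 and 0 in the others. The ratio of the group means over those 7 libraries was 425. The pooled ratio was 2872 (95% exact binomial counting interval 515 to 113488); the count in phloem lay in the shallowest library, which weighs more in the ratio of means. The gene had a Benjamini-Hochberg adjusted p of 0.0176 in edgeR's test without replicate 2. Because replicate 2 was at 0, its xylem sclerenchyma and phloem libraries overlapped when all 8 were used, and the adjusted p was then 0.0475. Epidermis, at 69.2 ± 24.1 CPM, and pith parenchyma, at 26.5 ± 14 CPM, also held the gene, and vascular parenchyma had 0.35 ± 0.477 CPM (SD, n = 4 each).

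Presence and absence of counts were also listed, with no model. For each library in turn, genes were listed that had at least 10 CPM in all 4 libraries of the other type and 0 counts in the other 3 libraries of its own type. For xylem sclerenchyma replicate 2 this list held 33 phloem genes, and the library had at least 1 CPM of 30 of them, at a median of 16.1 CPM. For xylem sclerenchyma replicates 1, 3 and 4 the lists held 8, 3 and 6 genes, of which 2, 0 and 1 reached 1 CPM. These 3 lists require 0 counts in replicate 2, so any phloem gene that it holds is left out of them, and their lengths cannot be set against the 33. For phloem replicates 1, 2, 3 and 4 the lists of xylem sclerenchyma genes held 7, 0, 0 and 5. Phloem replicate 1 had all 7 at 4.33 to 10.1 CPM, with a median of 24.3% of the xylem sclerenchyma mean. Phloem replicate 4 had at least 1 CPM of 3 of the 5. In xylem sclerenchyma replicate 2 the corresponding median was 29% of the phloem mean, at up to 325 CPM. No gene had at least 10 CPM throughout xylem sclerenchyma and 0 counts throughout phloem. Every gene on a phloem list therefore had counts in the left-out library by construction. In xylem sclerenchyma replicate 2 only the 3 genes at 0 throughout that type could lack counts. The percentages thus do not show whether the 2 libraries are alike. The 33 phloem genes had a median of 54.8 CPM over phloem means, 5.5 in whole stem, 5.27 in vascular parenchyma, 0.182 in pith parenchyma and 0.0299 in epidermis. All 33 had counts in whole stem, while 11 were at 0 in all 4 pith parenchyma libraries and 12 in all 4 epidermis libraries. With all 8 libraries required, 3 genes had at least 10 CPM in every phloem library and 0 counts throughout xylem sclerenchyma, and 0 genes met the reverse condition.

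Because replicates 1 and 2 were shallower than replicates 3 and 4 in both types, the comparison was repeated within each of these sets. Neither set gave a call with 2 libraries per type, and at an unadjusted p under 0.05 edgeR's test gave 668 genes of 19634 in replicates 1 and 2 and 1463 of 20450 in replicates 3 and 4. The sets share no library, so each could be read against the other, over 18939 genes tested in both. Of 655 genes found in replicates 1 and 2, 581 (88.7%) had the same direction in replicates 3 and 4. Of 1430 genes found in replicates 3 and 4, 1184 (82.8%) had it in replicates 1 and 2, against 61.2% of all genes. The share over all genes is not matched for abundance to the genes found. In 243 genes (1.28%) the unadjusted p was under 0.05 in both sets with the same direction, and in 3 with opposite directions. Of the 243, 190 were higher in xylem sclerenchyma and 53 in phloem. Replicate 2 of xylem sclerenchyma supplies 1 of the 2 libraries of its type in the first set, and phloem replicate 3 does so in the second.

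The other cell types showed where else the called genes were expressed. The 78 genes higher in xylem sclerenchyma had a median of 438 CPM there, over the means of 4 libraries, followed by 234 in epidermis, 201 in whole stem, 200 in pith parenchyma, 99.4 in vascular parenchyma and 72.7 in phloem. On the log2 scale vascular parenchyma lay nearer phloem than xylem sclerenchyma for 66 of the 78 (84.6%, against 48.8% of all genes tested). Epidermis did so for 26 (33.3%, against 44.1%), pith parenchyma for 38 (48.7%, against 43.3%) and whole stem for 22 (28.2%, against 42.6%). By library, the medians were 59.9 to 153 CPM in vascular parenchyma, below the 145 to 219 CPM of pith parenchyma except at vascular parenchyma replicate 2, which had 153.

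Contrasts among the other cell types, whose group levels use no phloem or xylem sclerenchyma library, placed vascular parenchyma low for these genes as well. They come from the same fit of 20 libraries, so its filter, normalization and estimate of the spread do use them. Calls were more frequent among abundant genes, and 73 of the 78 had at least 100 CPM in xylem sclerenchyma. The shares over all genes are thus no matched background and the contrasts no independent support. In epidermis against vascular parenchyma, 29 of the 78 genes were called higher in epidermis and 6 higher in vascular parenchyma, where 4.64% and 5.52% of all 19502 genes were. In pith parenchyma against vascular parenchyma, 22 were higher in pith parenchyma and 3 higher in vascular parenchyma, with backgrounds of 2.96% and 4.21%. The median log2 difference of the 78 was 1.21 for epidermis minus vascular parenchyma and 0.69 for pith parenchyma minus vascular parenchyma, against -0.12 and 0.00 for all genes tested. When epidermis was set against pith parenchyma, 6 of the 78 passed on the epidermis side and 5 on the other, with backgrounds of 1.46% and 1.09%. By median level the 78 were thus lowest in phloem and vascular parenchyma.

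The 60 phloem genes were distributed differently. Over means of 4 libraries their median was 369 CPM in phloem, 60.8 in vascular parenchyma, 57.1 in whole stem, 44.1 in epidermis and 14.2 in pith parenchyma. Vascular parenchyma was nearer phloem than xylem sclerenchyma in 2 of the 60 (3.33%, against 48.8% of all genes tested). Epidermis was so in 10 (16.7%, against 44.1%), pith parenchyma in 5 (8.33%, against 43.3%) and whole stem in 5 (8.33%, against 42.6%). The other end was the mean of all 4 xylem sclerenchyma libraries, replicate 2 included. Choosing genes for high levels in phloem favours low shares in any other tissue, so these shares do not set vascular parenchyma apart. In 4 whole stem libraries and in vascular parenchyma replicates 1 and 3 all 60 genes had counts, and in epidermis 9 to 22 of them had 0 counts per library. Against epidermis, 21 of the 60 were called higher in vascular parenchyma and 4 lower, and against pith parenchyma 12 were higher in vascular parenchyma and 0 lower, with the backgrounds given above (5.52% and 4.64%, and 4.21% and 2.96%). Those backgrounds are not matched to the 60 for abundance either.

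**Figure D5:**
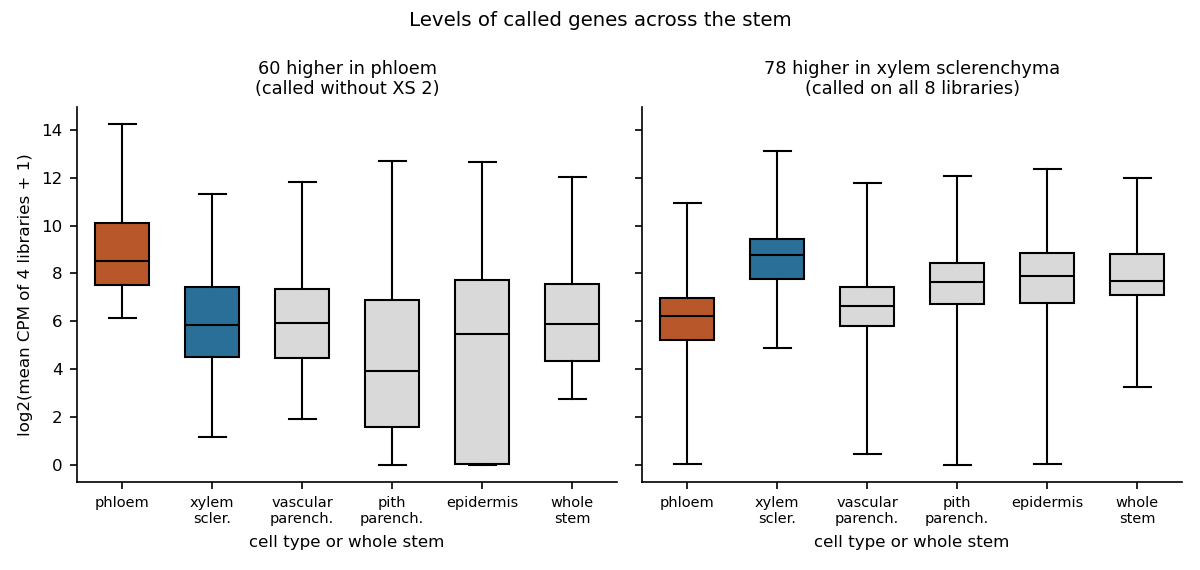
Levels of called genes across all cell types and whole stem. The y axis is log2 of the mean CPM of 4 libraries plus 1, boxes are quartiles over genes with the median as a line, and whiskers reach the lowest and highest gene. The left panel shows the 60 genes higher in phloem, with medians of 369 CPM in phloem and 14.2 in pith parenchyma, and the right panel the 78 higher in xylem sclerenchyma, with medians of 438 CPM there, 99.4 in vascular parenchyma and 72.7 in phloem.

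Most genes could be shown neither to differ nor to be alike. By limma voom with sample quality weights, the 95% interval of the log2 difference between phloem and xylem sclerenchyma lay within 2-fold either way for 722 of the 19502 genes (3.7%). Their median level over the 8 libraries was 124 CPM, against 16.4 CPM for all genes tested. At 100 to 1000 CPM that share was 24.4%, at 10 to 100 CPM 2.71%, and below 10 CPM it held 0 of 7669 genes. The library weights in that fit were 6.92, 2.98, 0.0884 and 0.996 for phloem replicates 1 to 4. They were 3.38, 1.34, 0.629 and 0.341 for xylem sclerenchyma replicates 1 to 4. The intervals thus lean on replicate 1 of each type and hardly use phloem replicate 3. The same fit called 1175 of the 19502 genes as different, against 95 by edgeR. The median biological coefficient of variation, edgeR's measure of the spread between replicates, was 1.25 in the fit of 20 libraries and 1.05 in a fit of these 8 alone.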

How the data were processed

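RNA from laser-captured cells was made into full-length cDNA libraries with the SMART-Seq v4 PLUS kit and sequenced as single reads of 150 bp, per the labels' protocols. The authors deposited each gene's estimated counts, unnormalized, and the submitters' processing notes name Salmon, alevin and FastQC without versions or roles. Which genome build and annotation they used is not given in the sources used here. A share of 10.5% of the values was not whole (tolerance 1e-09), and all were rounded before any model. Without molecular identifiers in the labels, intervals and floors (3 counts) cover counting error only. Genes with close copies are uncertain, since the labels do not state how shared reads were split.

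Tests used R 4.3.3 with edgeR 4.0.16 (filterByExpr, TMM, robust quasi-likelihood), fitted over the 20 laser capture libraries so that all 5 cell types share 1 estimate of the spread, with adjustment over all genes tested and calls at an adjusted p under 0.05 and an absolute log2 fold change of at least 1. Standard errors (SE) given with edgeR's fold changes were back-calculated. Each was the absolute log2 fold change divided by the square root of the quasi-likelihood F statistic. limma 3.58.1 voom and DESeq2 1.42.0 were alternatives. The edgeR script was tested on simulated data. Their spread was set below the median found in the fit of 20 libraries, and no simulated library stood apart. That test therefore does not show how reliable the calls are in the present libraries. CPM are counts scaled by the library total. Named genes were called genes with no overlap between libraries and at least 10 CPM in the higher group, ranked by fold, the first 2 per direction, and likewise in the fit without xylem sclerenchyma replicate 2. The likeness of a gene's pattern was the Pearson correlation of log2(CPM + 1) over 20 libraries. The gene lists planned by product name could not be built. The labels give 4 replicates from 4 plants and do not say that a replicate number marks a plant. The libraries, members and rules were chosen with earlier results of these data known, and the comparisons without the 2 doubted libraries are no independent support. The lists of genes present in one type and at 0 in the other, the positions of left-out libraries and the interval count were added after the data were seen.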

Additional observations from a re-analysis of the deposited data

Results flagged for a closer look

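Among 4 libraries of a type, a value was marked where its gap to the next was, as a share of the range, above the 95% critical value of Dixon's test. This was tested for 7 named genes, total counts and detected genes in both types, 18 groups in all, and chance marks about 1 in 20 groups. There were 6 marks, all at genes named for large folds. The number of detected genes in phloem replicate 3, described above as standing apart, was not marked. In 5 of them the other 3 libraries were at 0, where any count is marked, and the genes of xylem sclerenchyma replicate 2 were picked without that library, so the number of marks cannot be read against chance. Xylem sclerenchyma replicate 2 was marked for Sobic.001G446800 at 325 CPM and for Sobic.010G197700 at 233 CPM, with the other 3 libraries at 0. Phloem replicate 3 was marked for Sobic.008G137000 at 170 CPM. The other 3 marks rest on 1 count each. They were Sobic.002G207900 in phloem replicate 4 at 0.033 CPM, Sobic.003G075400 in phloem replicate 1 at 0.361 CPM and Sobic.010G202100 in xylem sclerenchyma replicate 4 at 0.0364 CPM.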

How the results depend on the processing

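The 95 calls (17 higher in phloem, 78 in xylem sclerenchyma) stayed within 1.5 times in number under RLE normalization, no filter, the 8 libraries alone and a covariate for the depth sets, and no called gene changed direction under any alternative that tested it. The genes were not all the same, however: the fit of the 8 libraries alone shared 5 of the 17 and 26 of the 78. DESeq2 called 726 genes (269 and 457) and limma voom with quality weights 1175 (676 and 499). With edgeR and DESeq2 more calls fell on the xylem sclerenchyma side and with voom on the phloem side; voom changed both the tool and the weight of each library, and the cause was not tested. Leaving out 1 library gave 6 to 140 calls, 0 to 60 higher in phloem and 5 to 80 higher in xylem sclerenchyma; leaving out phloem replicate 3 and xylem sclerenchyma replicate 2 together gave 57 (28 and 29). Within replicates 1 and 2, and within replicates 3 and 4, there were 0 calls in either direction, with fewer samples. For detected genes the difference of -220 became 1115 without phloem replicate 3, 186 without xylem sclerenchyma replicate 1 and 1061 without both doubted libraries; over all omissions of 1 library it ran from -920 to 1115.

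The labels do not say that a replicate number marks a plant, and the numbers were not treated as pairs in the main fit. Deviations of same-numbered libraries correlated at 0.14, 0.06, 0.07 and 0.02, and those of other pairs at -0.11 to 0.05. Of 8 libraries, 6 correlated best with their own number, so these values are no ground for ignoring a pairing. With a replicate block, 62 genes were called (10 higher in phloem, 52 in xylem sclerenchyma), sharing 6 of the 17 and 47 of the 78. Under it the edgeR adjusted p (Benjamini-Hochberg) was 0.0606 for Sobic.001G054600, 0.0685 for Sobic.008G137000, 0.103 for Sobic.010G202100 and 0.0981 for Sobic.003G075400, which were then not called, and 0.00476 for Sobic.002G207900, which was. There were 0 calls with the block on the 8 libraries alone, where edgeR gave 1724 genes at an unadjusted p under 0.05.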
